A study of Mus musculus with 10 samples.

Results

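The chemokines that call neutrophils into tissue, the receptor that reads them and the receptor for granulocyte colony-stimulating factor were followed in the distal colorectum of mice. The genes were the CXCR2 ligands Cxcl1, Cxcl2, Cxcl5 and Ppbp, the receptor gene Cxcr2, and Csf3r. Their probe sets were found by the gene symbol in the platform annotation, which gave 8 of the 45101 probe sets on the array and 6 of the 18193 genes that the annotation names: 3 probe sets for Cxcl1 and 1 for each of the others. The 10 arrays held irradiated Pdgfc-/- mice (n = 3), irradiated Pdgfc+/+ mice (n = 3), unirradiated Pdgfc-/- mice (n = 2) and unirradiated Pdgfc+/+ mice (n = 2), all of strain C57BL/6J. Pdgfc encodes platelet-derived growth factor C, a growth factor for fibroblasts and other mesenchymal cells. The irradiated mice received 25 Gy of γ-rays locally, at 2.14 Gy per minute and under chloral hydrate anaesthesia. Their colorectum about 1 cm above the anus was taken 8 weeks later. The same site was taken from the unirradiated mice, for which no time is recorded here. Age and sex are not given in the labels used here, nor whether the unirradiated mice were anaesthetised. The labels call the replicates biological. Pdgfc-/- mice are called knockout and Pdgfc+/+ mice wild type from here on.

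Neutrophils leave the blood by following gradients of CXC chemokines that carry a short glutamate-leucine-arginine motif, and Cxcr2 is the receptor on the neutrophil that binds them in mice. Cxcl1 and Cxcl2 are made by macrophages, epithelium and stroma within hours of an inflammatory signal, Cxcl5 is made mainly by epithelium, and Ppbp is known as a platelet granule protein whose cleaved forms bind the same receptor. Csf3r, the receptor for granulocyte colony-stimulating factor, sustains the production, release and survival of neutrophils. The mouse ligand genes lie in one cluster on chromosome 5, in the order Cxcl5, Ppbp, Pf4, Cxcl3, Cxcl15, Cxcl1 and Cxcl2 in the RefSeq table of the GRCm38.p6 assembly, while Cxcr2 is on chromosome 1 and Csf3r on chromosome 4.

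The stretches just upstream of the transcription start are shown for the ligand genes of the cluster whose levels the results turn on, because these neighbours differ in the letters that the inflammatory factor NF-kB and the general transcription machinery are known to read. Each is 120 bases of RefSeq sequence (GRCm38.p6, plus strand) that ends at the base before the annotated start, at chr5:90891125-90891244 for Cxcl1, chr5:90903779-90903898 for Cxcl2, chr5:90785981-90786100 for Cxcl3 and chr5:90768398-90768517 for Ppbp. Capitals mark GGGNNTTTCC on either strand, an NF-kB-type motif, and TATAAA or CATAAA on the gene's strand.
Cxcl1: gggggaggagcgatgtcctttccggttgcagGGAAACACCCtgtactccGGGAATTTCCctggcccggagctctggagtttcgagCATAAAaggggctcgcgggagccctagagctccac
Cxcl2: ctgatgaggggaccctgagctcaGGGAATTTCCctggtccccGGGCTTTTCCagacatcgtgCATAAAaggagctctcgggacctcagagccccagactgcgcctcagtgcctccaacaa
Cxcl3: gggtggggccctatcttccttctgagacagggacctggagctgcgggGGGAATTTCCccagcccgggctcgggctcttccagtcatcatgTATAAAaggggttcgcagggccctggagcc
Ppbp: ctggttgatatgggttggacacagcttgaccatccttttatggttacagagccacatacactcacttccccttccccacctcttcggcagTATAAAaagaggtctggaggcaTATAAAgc

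The letters GGGAATTTCC, 1 form of GGGNNTTTCC, began 71 bases before the start of Cxcl1, 97 before that of Cxcl2 and 73 before that of Cxcl3. They were present in 29 of the 32851 promoter windows in the RefSeq table, or 0.088%, each window reaching from 250 bases before a start to 50 after it. GGGNNTTTCC in any form was present in 1.629% of windows, and Cxcl1 and Cxcl2 each held 2 matches, the reverse-strand match of Cxcl1 reading GGAAACACCC. No match to GGGNNTTTCC was in the windows of Ppbp, Cxcr2, Csf3r, Pf4 or Cxcl15. Ppbp held TATAAA at 30 and 8 bases before its start, and TATAAA was in 8.319% of windows and CATAAA in 6.529%. A match describes letters only and is not evidence that a factor binds there. Cxcl5 was not matched in the promoter table.

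Values are log2 signals on the scale of the authors' MAS5 software, and the median probe set of an array lay at 6.64 to 7.18. MAS5 spreads dim signals widely, so differences that rest on a group below that median are less certain than those between bright groups. Pdgfc itself lay at 6.26 to 7.15 in irradiated knockouts and at 8.56 to 8.75 in irradiated wild types, and at 5.62 to 6.42 in unirradiated knockouts and 7.01 to 7.50 in unirradiated wild types. The groups did not overlap, but neither difference passed adjustment (adjusted p = 0.69 after irradiation and 0.16 without, limma), and where the probe set lies relative to the deleted part is not given in the labels. Xist and Y-linked transcripts split the arrays into 6 with a male pattern and 4 with a female pattern, namely the 3 irradiated wild types and irradiated knockout replicate 1. In wild type, irradiation and sex pattern therefore cannot be told apart. The 3′ minus 5′ difference of the Gapdh control probe sets, which follows RNA integrity, ranged over -0.54 to -0.35 after irradiation and -0.32 to 0.02 without, and its part in the differences that follow was not tested. The same difference for Actb overlapped, at 0.44 to 0.58 after irradiation and 0.35 to 0.66 without.

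**Figure D1:**
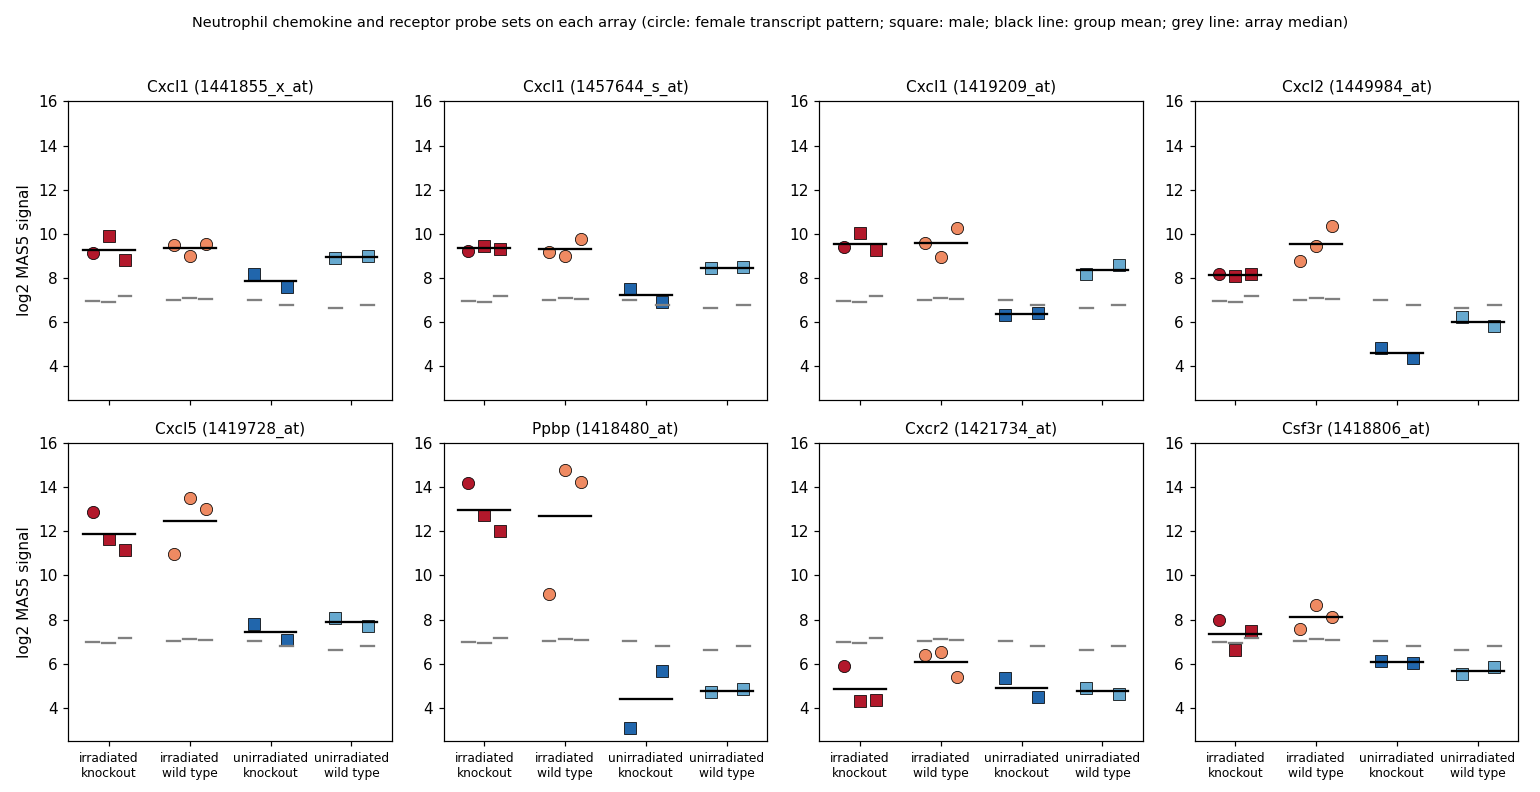
Log2 MAS5 signal of each of the 8 probe sets (vertical axis) on the 10 arrays, by group; circles are arrays with the female transcript pattern, squares those with the male pattern, black lines are group means and grey lines array medians. The 6 irradiated arrays had Ppbp signals between 9.17 and 14.75 and the 4 unirradiated arrays between 3.09 and 5.68, while Cxcr2 stayed below the array median on all 10.

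The first comparison asked what irradiation did to these genes in each genotype. At 8 weeks the ligands Ppbp, Cxcl5 and Cxcl2 were higher in irradiated than in unirradiated colorectum in knockout and in wild-type mice. Cxcl1 passed the test in knockouts and Csf3r in wild types, and Cxcr2 was too dim to be tested. In knockouts 4 of the 5 member genes tested rose, where 14% of all 12568 genes tested rose and 9.5% fell, 23.5% together. In wild types 4 of 5 rose, where 15.8% of all genes rose and 8.34% fell, 24.1% together (limma, Benjamini-Hochberg adjusted p below 0.05). Every irradiated array lay above every unirradiated array of the same genotype for all 5 genes, a separation that 28.4% of all genes showed in knockouts and 30.8% in wild types. Ppbp, Cxcl2 and Csf3r passed the filter on low values through irradiated arrays alone, so these counts give no support of their own. In RNA from whole tissue, more cells of a type and more RNA per cell cannot be told apart.

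Ppbp, the platelet basic protein whose processed form attracts neutrophils, had log2 signals of 14.16, 12.72 and 12.03 in irradiated knockouts against 3.09 and 5.68 in unirradiated knockouts. In wild types it had 9.17, 14.75 and 14.21 after irradiation against 4.72 and 4.83 without. Irradiated wild-type replicate 1 was the lowest irradiated array by far, yet still lay above all 4 unirradiated arrays, each of which was below its array median. The difference was 8.59 ± 1.46 log2 units (SE) in knockouts (384-fold, adjusted p = 0.0036, limma) and 7.93 ± 1.46 in wild types (243-fold, adjusted p = 0.0052). These folds rest on dim unirradiated signals: on the log2(signal + 64) scale the difference was 6.47 in knockouts (88.6-fold, adjusted p = 0.0095) and 6.24 in wild types (75.8-fold, adjusted p = 0.01). Single arrays moved the size but not the call: without irradiated wild-type replicate 1 the wild-type difference was 9.70, without irradiated wild-type replicates 2 and 3 it was 6.91 and 7.18, without unirradiated knockout replicates 1 and 2 the knockout difference was 7.29 and 9.88, and without irradiated knockout replicate 1 it was 7.99.

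Cxcl5, an epithelial chemokine that attracts neutrophils, had log2 signals of 12.88, 11.64 and 11.13 in irradiated knockouts against 7.82 and 7.06 in unirradiated knockouts. In wild types it had 10.95, 13.49 and 12.98 after irradiation against 8.06 and 7.71 without. All 6 irradiated arrays were above all 4 unirradiated ones, and the probe set lay above the array median on all 10 arrays. Cxcl5 rose by 4.44 ± 0.70 log2 units in knockouts (21.8-fold, adjusted p = 0.0025, limma) and by 4.59 ± 0.70 in wild types (24.1-fold, adjusted p = 0.0022). Irradiated wild-type replicate 1 was again the lowest and replicate 2 the highest of the irradiated arrays, as for Ppbp, and the wild-type difference was 5.35 without replicate 1.

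Cxcl2, a chemokine of activated macrophages, had log2 signals of 8.18, 8.09 and 8.19 in irradiated knockouts against 4.82 and 4.37 in unirradiated knockouts. In wild types it had 8.80, 9.46 and 10.36 after irradiation against 6.23 and 5.84 without. The 4 groups did not overlap, the irradiated knockouts were nearly equal to each other, and the 4 unirradiated arrays were below their medians. Cxcl2 rose by 3.56 ± 0.41 log2 units in knockouts (11.8-fold, adjusted p = 0.00048, limma) and by 3.51 ± 0.41 in wild types (11.4-fold, adjusted p = 0.00064). Its size too depends on the dim unirradiated values: on the log2(signal + 64) scale the difference was 1.98 in knockouts (3.95-fold, adjusted p = 0.004, limma) and 2.65 in wild types (6.27-fold, adjusted p = 0.0011).

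Cxcl1, the mouse chemokine also called KC, was read by 3 probe sets. The brightest, 1441855_x_at, which stands for the gene in the test over genes, had 9.16, 9.89 and 8.83 in irradiated knockouts against 8.17 and 7.61 in unirradiated knockouts. In wild types it had 9.49, 9.02 and 9.57 after irradiation against 8.90 and 8.99 without. The wild-type groups came within 0.1 of touching, whereas the knockout groups were well apart. Cxcl1 rose by 1.41 ± 0.31 log2 units in knockouts (2.65-fold, adjusted p = 0.012, limma), a call lost without unirradiated knockout replicate 2 (1.13, adjusted p = 0.10). In wild types the difference was 0.42 ± 0.31 (adjusted p = 0.36, 95% interval -0.28 to 1.11).

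Probe set 1419209_at of Cxcl1 had 9.41, 10.02 and 9.27 in irradiated knockouts against 6.32 and 6.43 in unirradiated knockouts, and in wild types 9.58, 8.95 and 10.26 against 8.19 and 8.58. Probe set 1457644_s_at had 9.24, 9.47 and 9.34 in irradiated knockouts against 7.52 and 6.92 in unirradiated knockouts, and in wild types 9.19, 9.01 and 9.76 against 8.44 and 8.51. On each of the 3 probe sets the unirradiated knockouts were the lowest group and the irradiated arrays of both genotypes overlapped. In the test over 25883 probe sets, where 19.9% were called in knockouts and 18.8% in wild types, all 3 rose in knockouts, by 3.19 ± 0.35 (adjusted p = 0.00042, limma) for 1419209_at and 2.13 ± 0.25 (adjusted p = 0.00056) for 1457644_s_at. In wild types 1419209_at rose by 1.21 ± 0.35 (adjusted p = 0.038) and 1457644_s_at by 0.85 ± 0.25 (adjusted p = 0.041), while 1441855_x_at did not pass (adjusted p = 0.38). Both wild-type calls lie at the edge of the threshold. That of 1419209_at was lost without any 1 of the 4 unirradiated arrays or irradiated wild-type replicate 1 or 3 (adjusted p = 0.055 to 0.22), where the difference was 0.88 to 1.41. That of 1457644_s_at was lost without unirradiated wild-type replicate 1 or 2, irradiated knockout replicate 1 or 3, or irradiated wild-type replicate 1 or 3 (adjusted p = 0.051 to 0.17), where it was 0.63 to 0.91. In this array's naming an x marks a set with probes that can match other sequences and an s a set shared by transcripts.

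Csf3r, which passes the granulocyte colony-stimulating signal to neutrophils and their precursors, had log2 signals of 7.97, 6.61 and 7.46 in irradiated knockouts against 6.14 and 6.02 in unirradiated knockouts. In wild types it had 7.58, 8.64 and 8.12 after irradiation against 5.52 and 5.85 without. The irradiated arrays lay above the unirradiated ones in both genotypes, with knockout replicate 2 the lowest of them and below its array median. In knockouts the difference was 1.27 ± 0.45 log2 units (2.41-fold, 95% interval 0.27 to 2.27) and did not pass adjustment (adjusted p = 0.066, limma), but it passed without irradiated knockout replicate 2 (1.64, adjusted p = 0.016). In wild types Csf3r rose by 2.43 ± 0.45 (5.40-fold, adjusted p = 0.0051), or by 1.57 on the log2(signal + 64) scale (2.97-fold, adjusted p = 0.008).

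Cxcr2, the chemokine receptor itself, had log2 signals of 5.90, 4.30 and 4.37 in irradiated knockouts against 5.37 and 4.47 in unirradiated knockouts. In wild types it had 6.38, 6.52 and 5.39 after irradiation against 4.92 and 4.65 without. All 10 values were below the array median, the knockout groups overlapped, and the irradiated wild types lay above the unirradiated wild types. Of all genes tested, 30.8% were separated upward in the same way in wild types. Fitted without the filter on low values, the difference was -0.06 ± 0.65 log2 units in knockouts (adjusted p = 0.97, limma, 95% interval -1.51 to 1.38) and 1.31 ± 0.65 in wild types (adjusted p = 0.21, 95% interval -0.13 to 2.76). No change in the receptor's RNA was detected at this brightness, and the intervals leave room for a change in either direction.

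**Figure D2:**
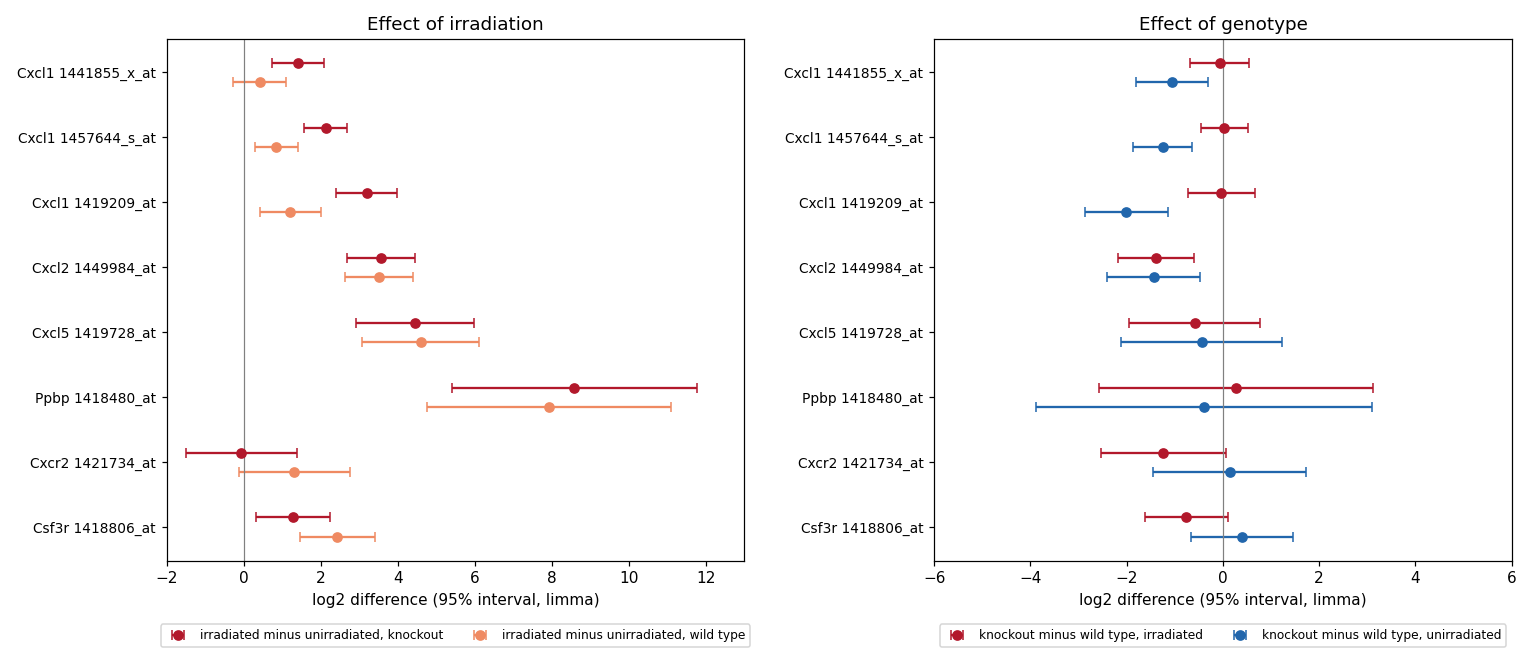
Log2 differences with 95% intervals (horizontal axis, limma) for the 8 probe sets; the left panel gives irradiated minus unirradiated mice in knockouts and wild types, the right panel knockout minus wild type with and without irradiation, and Cxcr2 comes from the fit without the filter. The irradiation differences of Ppbp, Cxcl5 and Cxcl2 lie right of 0 in both genotypes, and after irradiation the 3 Cxcl1 probe sets lie between -0.07 and 0.03.

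The irradiated wild types had the female pattern and the unirradiated ones the male pattern. With sex pattern as a covariate, which rests on the 1 female array of irradiated knockout, none of the 5 genes passed in wild types and 16 of all genes did. The wild-type differences were then 6.14 for Ppbp, 3.10 for Cxcl5, 3.47 for Cxcl2 and 1.49 for Csf3r, with adjusted p of 0.37, 0.28, 0.11 and 0.43 (limma). Knockouts allow a comparison within the male pattern, of irradiated replicates 2 and 3 with both unirradiated mice. There Ppbp differed by 7.99 (adjusted p = 0.00069, limma), Cxcl5 by 3.95 (adjusted p = 0.00046), Cxcl2 by 3.55 (adjusted p = 0.0035) and Cxcl1 by 1.47 (adjusted p = 0.038). Csf3r differed by 0.96 in that comparison and did not pass (adjusted p = 0.26).

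The second comparison asked whether loss of Pdgfc changed these genes in irradiated tissue. No member passed in irradiated knockouts against irradiated wild types, nor did any of the 12568 genes (0%), of which 500, or 3.98%, had an unadjusted p below 0.05 in limma. Cxcl2 was the 1 member whose groups did not overlap, at 8.09 to 8.19 in irradiated knockouts against 8.80 to 10.36 in irradiated wild types, a separation in this direction that 4.04% of all genes showed. Its difference was -1.39 ± 0.36 log2 units (95% interval -2.20 to -0.57, unadjusted p = 0.0036 and adjusted p = 1, limma), the 1 member with an unadjusted p below 0.05, and -0.97 without irradiated wild-type replicate 3. Ppbp averaged 12.97 ± 1.09 in irradiated knockouts and 12.71 ± 3.08 in irradiated wild types (SD, n = 3 each), and its difference of 0.26 ± 1.31 had an interval of -2.66 to 3.19. Without irradiated wild-type replicate 1 that difference was -1.51, so its sign rests on 1 array.

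Cxcl5 averaged 11.88 ± 0.90 in irradiated knockouts and 12.47 ± 1.34 in irradiated wild types, with an interval of the difference of -1.99 to 0.81. Csf3r averaged 7.35 ± 0.69 in irradiated knockouts and 8.11 ± 0.53 in irradiated wild types, with an interval of -1.66 to 0.13. Cxcl1 was nearly level, at 9.29 ± 0.54 in irradiated knockouts and 9.36 ± 0.29 in irradiated wild types, with an interval of -0.69 to 0.55. A 2-fold difference in either direction lies inside the interval of Ppbp, and a 2-fold lower level inside those of Cxcl5 and Csf3r, so these arrays do not show that the genotypes are alike. Irradiated knockouts held 1 array with the female pattern and irradiated wild types 3, so this comparison also cannot be made within the male pattern.

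Without irradiation the knockouts were again not distinguished by the test over genes. No member passed, where 1.23% of all genes did. In unirradiated knockouts against unirradiated wild types, 2 of the 5 members tested had an unadjusted p below 0.05, as did 2082 of all genes, or 16.6%. Cxcl2 differed by -1.44 ± 0.44 log2 units (unadjusted p = 0.0091 and adjusted p = 0.15, limma), or -0.56 on the log2(signal + 64) scale (adjusted p = 0.51), and Cxcl1 by -1.06 ± 0.34 (unadjusted p = 0.011 and adjusted p = 0.16). Neither had overlapping groups. Such a separation downward, between groups of 2 arrays, was seen for 18.9% of all genes. In the test over probe sets, where 1.07% passed, Cxcl1 probe set 1419209_at fell by 2.01 ± 0.39 in knockouts (adjusted p = 0.042, limma), 1457644_s_at differed by -1.26 ± 0.27 (adjusted p = 0.065) and 1441855_x_at by -1.06 ± 0.34 (adjusted p = 0.16). The call on 1419209_at was lost without any 1 of the 4 unirradiated arrays, with adjusted p of 0.08 and 0.16 without unirradiated wild-type replicates 1 and 2 and of 0.23 and 0.15 without unirradiated knockout replicates 1 and 2. It was lost too without irradiated knockout replicates 1 and 3 (0.061 and 0.059) or irradiated wild-type replicate 1 (0.062), with the difference at -2.20 to -1.81 throughout. All 4 unirradiated arrays had the male pattern.

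Ppbp and Cxcl5 overlapped between the unirradiated genotypes. Ppbp averaged 4.38 ± 1.83 in unirradiated knockouts and 4.78 ± 0.08 in unirradiated wild types (SD, n = 2 each), and Cxcl5 7.44 ± 0.53 in unirradiated knockouts and 7.88 ± 0.24 in unirradiated wild types. Csf3r went the other way from the ligands, at 6.08 ± 0.09 in unirradiated knockouts and 5.68 ± 0.23 in unirradiated wild types (difference 0.40 ± 0.49, adjusted p = 0.73, limma). Its groups did not overlap, and 28.9% of all genes were separated upward in the same way.

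Whether irradiation acted differently in the genotypes was tested as an interaction, the irradiation difference in knockouts minus that in wild types. No member passed, where 0.207% of all genes did. Cxcl1 had an interaction of 0.99 ± 0.44 log2 units (unadjusted p = 0.048 and adjusted p = 0.47 in limma), and its probe sets 1419209_at and 1457644_s_at had 1.97 ± 0.50 (adjusted p = 0.21) and 1.29 ± 0.35 (adjusted p = 0.25), in a test that 0.189% of probe sets passed. The values show unirradiated knockouts lower than unirradiated wild types and irradiated groups level. Csf3r had an interaction of -1.16 ± 0.63 (adjusted p = 0.57), so the pass in wild types and the miss in knockouts is not a shown difference between genotypes. The intervals were -1.23 to 1.34 for Cxcl2, -2.36 to 2.07 for Cxcl5 and -3.96 to 5.28 for Ppbp.

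The order of the group means differed between the genes. Cxcl2 ran upward through unirradiated knockout, unirradiated wild type, irradiated knockout and irradiated wild type with no overlap between neighbours. Cxcl5 ran in the same order, but the genotypes overlapped at both steps and only irradiation separated the groups. Ppbp had the same lower pair, with irradiated wild type below irradiated knockout and both pairs overlapping. On 1441855_x_at Cxcl1 ran as Cxcl2 did, but its unirradiated wild types fell inside the range of the irradiated knockouts. Csf3r ran through unirradiated wild type, unirradiated knockout, irradiated knockout and irradiated wild type, and the irradiated genotypes overlapped. The spread over the 6 irradiated arrays was 5.58 log2 units for Ppbp, 2.53 for Cxcl5, 2.27 for Cxcl2, 2.03 for Csf3r and 1.05 for Cxcl1.

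**Figure D3:**
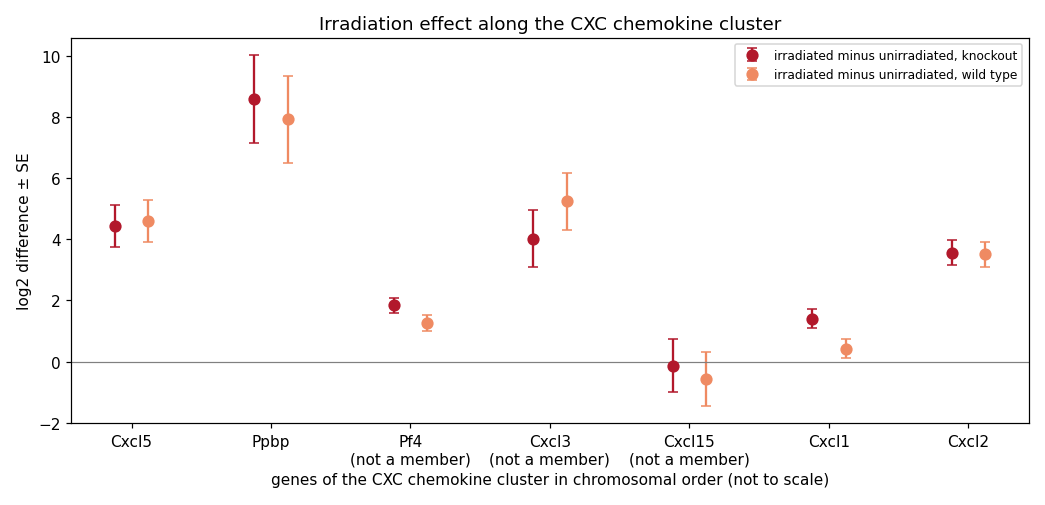
Irradiation difference (log2, irradiated minus unirradiated, ± SE, vertical axis) of the genes of the CXC chemokine cluster in chromosomal order, not to scale, in knockouts and wild types, from the fit without the filter on low values. Ppbp reached 8.59 in knockouts and 7.93 in wild types, and Cxcl15, in the same cluster, lay at -0.14 in knockouts and -0.57 in wild types.

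Along the cluster the neighbours of these ligands did not all follow them. Cxcl3, a further CXCR2 ligand, had 7.02 to 9.14 in irradiated knockouts against 3.07 to 4.59 in unirradiated knockouts, and 7.79 to 10.81 in irradiated wild types against 3.95 to 4.96 in unirradiated wild types. It rose by 4.02 ± 0.95 log2 units in knockouts (adjusted p = 0.015, limma) and by 5.24 ± 0.95 in wild types (adjusted p = 0.0048). Cxcl3 was below the array median on every unirradiated array, so it passed the filter through irradiated arrays alone. Pf4, a platelet chemokine that lies next to Ppbp, had 10.41 to 10.83 in irradiated knockouts against 8.47 to 9.09 in unirradiated knockouts, and 10.31 to 10.75 in irradiated wild types against 8.94 to 9.58 in unirradiated wild types. It rose by 1.84 ± 0.25 in knockouts (adjusted p = 0.0013) and 1.26 ± 0.25 in wild types (adjusted p = 0.0075), smaller differences than those of Ppbp. Cxcl15, known as a lung chemokine, was never above the array median, and without the filter it differed by -0.14 in knockouts (adjusted p = 0.94) and -0.57 in wild types (adjusted p = 0.73). Genes with the letters GGGAATTTCC upstream (Cxcl1, Cxcl2, Cxcl3) rose in knockouts, as did Ppbp and Pf4 without them, while Cxcl15, also without them, was too dim to be tested. In wild types Cxcl1 did not pass (0.42 ± 0.31, adjusted p = 0.36, limma), while Cxcl2, Cxcl3, Ppbp and Pf4 rose. A link between these letters and the differences was not tested.

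The wider pathway of neutrophil recruitment was described by 32 further genes, of which 29 were on the array and 24 were tested. After irradiation 14 were higher and 1 lower in knockouts, where 14% of all genes tested were higher and 9.5% lower. In wild types 15 were higher and 1 lower, where 15.8% of all genes were higher and 8.34% lower. The median difference was 2.25 log2 units in knockouts beside 0.01 over all genes, and 2.30 in wild types beside 0.07. Some of the list, such as Cxcl3, passed the filter on low values through irradiated arrays alone, so these counts give no support of their own. Among the genes with the smallest p, Itgb2, the shared chain of the leukocyte integrins, rose by 3.65 ± 0.34 in knockouts (adjusted p = 0.00021, limma) and 3.68 ± 0.34 in wild types (adjusted p = 0.0003), and its endothelial partner Icam1 by 3.20 ± 0.28 in knockouts and 2.39 ± 0.28 in wild types. Itgam, the integrin chain of neutrophils and macrophages, rose by 2.13 ± 0.41 in knockouts and 3.27 ± 0.41 in wild types, and Itgal, another partner chain of Itgb2, by 3.14 ± 0.37 in knockouts and 2.64 ± 0.37 in wild types. Csf2rb, the common chain of the receptors for GM-CSF, IL-3 and IL-5, rose by 3.03 ± 0.36 in knockouts and 2.19 ± 0.36 in wild types. These leukocyte genes are not particular to neutrophils. Il1r1, the interleukin-1 receptor, rose in wild types by 2.61 ± 0.28 (adjusted p = 0.00049), and in knockouts differed by 0.85 ± 0.28 (adjusted p = 0.051), with an interaction of -1.77 ± 0.39 that did not pass (adjusted p = 0.17). The 1 gene that fell was Il17rc, a chain of the interleukin-17 receptor, by 0.92 ± 0.16 in knockouts and 1.06 ± 0.16 in wild types.

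Upstream signals for the ligands were looked at among the same genes, chosen after their values were seen. Not all of their means rose. The NF-kB genes averaged 13.48 (Nfkbia), 12.17 (Nfkbiz) and 10.66 (Rela) in irradiated knockouts against 13.41, 11.62 and 10.54 in unirradiated knockouts. In wild types they averaged 13.63, 12.14 and 10.70 after irradiation against 13.97, 12.28 and 10.86 without. Il1a and Il6 had higher means after irradiation in both genotypes, and Il1rn lower ones. Il1b, an inducer of Cxcl1 and Cxcl2, rose by 3.64 ± 0.61 log2 units in knockouts (adjusted p = 0.0034, limma) and 3.96 ± 0.61 in wild types (adjusted p = 0.0024). Tnf had 7.58 to 7.75 in irradiated knockouts against 3.90 to 5.71 in unirradiated knockouts, and rose by 2.88 ± 0.51 (adjusted p = 0.0042), while in wild types it had 7.06 to 7.76 against 6.80 to 7.56, a difference of 0.30 ± 0.51 (adjusted p = 0.70). The unirradiated knockouts were the low group for Tnf, as they were for Cxcl1, and neither the interaction of Tnf (2.57 ± 0.72, adjusted p = 0.28) nor its genotype difference without irradiation (-2.37 ± 0.55, adjusted p = 0.079) passed. Csf3, the ligand of Csf3r, had 5.66 to 6.30 in irradiated knockouts and 6.56 to 7.22 in irradiated wild types. Without irradiation it had 5.38 to 5.64 in knockouts and 6.68 to 7.12 in wild types. Every knockout array was below its array median for Csf3. Such a separation downward was seen for 4.04% of all genes after irradiation and 18.9% without. Csf3 differed with irradiation by 0.42 ± 0.42 in knockouts (adjusted p = 0.50, limma) and 0.09 ± 0.42 in wild types (adjusted p = 0.89). Between genotypes none of the 24 pathway genes passed in limma, while 3 had an unadjusted p below 0.05 after irradiation, beside 3.98% of all genes, and 8 without, beside 16.6% of all genes. After irradiation Il1r1 had the smallest p (-1.02 ± 0.25, unadjusted p = 0.0021 and adjusted p = 1). Knockout minus wild type was positive for 2 of the 24 genes after irradiation (median -0.53) and for 6 without (median -0.49), where the median over all genes was 0.00 and 0.07. Genes on the same arrays vary together, so these signs are not separate observations and give no support of their own. After irradiation the genotypes also differed in sex pattern. Some marker lists leaned the same way and others did not. After irradiation 0 of 10 neutrophil markers (median -0.75) and 0 of 13 macrophage markers (median -0.52) were positive. Without irradiation 2 of 10 (median -1.27) and 1 of 13 (median -0.81) were. Squamous epithelium markers were positive for 11 of 15 after irradiation (median 1.87) and 9 of 15 without (median 0.21). Absorptive colonocyte markers were positive for 9 of 14 after irradiation (median 0.06) and 6 of 14 without (median -0.10). Endothelial markers were positive for 1 of 11 after irradiation (median -0.15) and 8 of 11 without (median 0.30).

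Many marker lists of cells that could carry these transcripts moved with irradiation too. Fibroblast markers were higher for 11 of 12 tested in knockouts and 12 of 12 in wild types. Endothelial markers were higher for 9 of 11 in knockouts and 10 of 11 in wild types. Mast cell markers were higher for 8 and lower for 1 of 9 in knockouts, and higher for 7 of 9 in wild types. Over all genes tested, 14% were higher and 9.5% lower in knockouts, and 15.8% and 8.34% in wild types. Some markers, such as S100a9, passed the filter on low values through irradiated arrays alone, so the list counts give no support of their own. Of 20 neutrophil markers 17 were on the array, 10 were tested, and 6 were higher and 1 lower after irradiation in each genotype. Without unirradiated wild-type replicate 2 the wild-type count of calls was 4. Their summed linear signal was 11210 to 30654 in irradiated knockouts and 16593 to 63283 in irradiated wild types, against 3194 to 3963 in unirradiated knockouts and 7310 to 7417 in unirradiated wild types. S100a9, an alarmin of neutrophils and inflamed squamous epithelium, rose by 8.19 ± 0.85 log2 units in knockouts (adjusted p = 0.00032, limma) and 9.38 ± 0.85 in wild types (adjusted p = 0.0003). Fcgr4, an antibody receptor of myeloid cells, rose by 2.89 in knockouts and 3.05 in wild types. Lcn2, a siderophore-binding protein of neutrophils and epithelium, rose by 4.51 in knockouts and 3.58 in wild types. Cd177, a neutrophil surface protein that colon epithelium also makes, fell by 1.33 in knockouts and 1.23 in wild types. The granule genes Elane, Mpo, Prtn3, Ctsg and Camp, which are made in bone marrow precursors, were never above the array median, and Ly6g, Cebpe and Retnlg were not matched.

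Of 13 platelet and megakaryocyte markers 11 were on the array and 5 were tested, of which Pf4 rose in knockouts, and Pf4 and Itgb3, an integrin chain also found on endothelium, rose in wild types. Without 1 array the wild-type count was 0 to 2, with 0 when unirradiated wild-type replicate 1 was left out and 1 without unirradiated wild-type replicate 2, either unirradiated knockout, or irradiated wild-type replicate 1 or 2. Itga2b, the integrin chain that defines platelets, differed by -0.00 ± 0.25 log2 units in knockouts and 0.22 ± 0.25 in wild types (adjusted p = 1 and 0.58, limma), and Gp9, Gp5, Gp6, Treml1, Clec1b and Tubb1 were never above the array median. The summed linear signal of the list was 2549 to 2694 in irradiated knockouts and 2251 to 2748 in irradiated wild types, against 1399 to 1460 in unirradiated knockouts and 1387 to 1534 in unirradiated wild types. Pf4 alone held 1357 to 1814 of that sum in irradiated knockouts and 1268 to 1728 in irradiated wild types, against 353 to 544 in unirradiated knockouts and 492 to 765 in unirradiated wild types. The mean log2 signal of the list was 6.52 to 6.93 in irradiated knockouts and 6.50 to 6.80 in irradiated wild types, against 6.39 to 6.60 in unirradiated knockouts and 6.27 to 6.31 in unirradiated wild types, so it overlapped in knockouts. The 1 erythroid marker tested, Hba-a2, did not pass in either genotype.

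Macrophage markers were higher for 12 and lower for 1 of the 13 tested in knockouts and higher for 12 of 13 in wild types, with a summed signal of 22179 to 34666 in irradiated knockouts and 36997 to 46046 in irradiated wild types, against 3700 to 5725 in unirradiated knockouts and 5969 to 5977 in unirradiated wild types. Squamous epithelium markers, which a glandular colon lacks, were higher for 15 of 15 in knockouts and 12 of 15 in wild types. Their summed signal was 36621 to 121796 in irradiated knockouts and 35656 to 89471 in irradiated wild types. It was 617 to 751 in unirradiated knockouts and 438 to 781 in unirradiated wild types. On unirradiated arrays 1 or 2 of these 15 genes were above the array median, against 11 to 15 on irradiated arrays. Most thus passed the filter on low values through irradiated arrays alone, so the squamous counts give no support of their own. Absorptive colonocyte markers were lower for 8 of 14 in knockouts, a count of 5 and 3 without unirradiated knockout replicates 1 and 2, and for 9 of 14 in wild types. Of all genes tested, 14% were higher and 9.5% lower in knockouts, and 15.8% and 8.34% in wild types. The mean log2 signal of the squamous list was 12.54, 10.61 and 11.80 in irradiated knockouts and 11.53, 11.59 and 8.65 in irradiated wild types. Its highest array was irradiated knockout replicate 1, which also had the highest Ppbp and Cxcl5 among knockouts. Its lowest irradiated array was wild-type replicate 3, where Ppbp and Cxcl5 were high, although Krt14 and Krt6a, squamous keratin genes of the list, were at 13.31 or above on every irradiated wild-type array. On wild-type replicate 1, where Ppbp and Cxcl5 were lowest among irradiated arrays, the squamous mean lay between those of the other irradiated wild types. The part of cell composition in the chemokine differences was not tested.

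**Figure D4:**
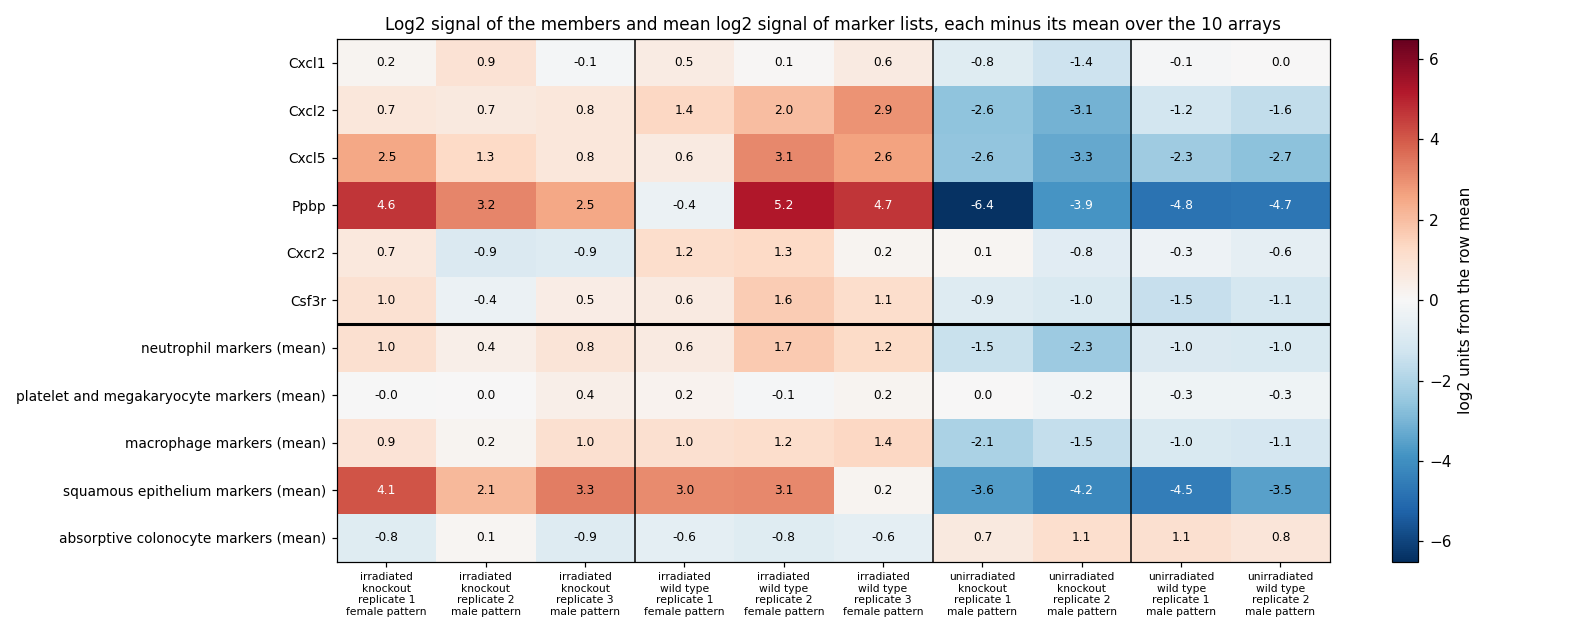
Log2 signal of each of the 6 genes, and mean log2 signal of 5 marker lists, on each of the 10 arrays (columns), minus its mean over the arrays; red is above and blue below that mean, and the row of Cxcl1 is probe set 1441855_x_at. Ppbp, Cxcl5 and the squamous list are highest among knockouts on irradiated replicate 1, while among irradiated arrays Ppbp and Cxcl5 are lowest on wild-type replicate 1 and the squamous list on wild-type replicate 3.

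The genes whose log2 signals ran closest to each member over the 10 arrays were found by the root mean square difference. Each gene was centred on its own mean. Only tested genes with an official-style symbol were ranked, which leaves out clone names, Rik numbers and Gm models. For Cxcl5 they were Mab21l3 (0.40 log2 units), the secreted protease gene Prss22 (0.50) and its cluster neighbour Cxcl3 (0.57). For Ppbp they were Sprr2d (1.16), a cornified envelope gene, Ifi202b (1.30), an interferon-inducible gene, and Sptssb (1.39), a subunit of serine palmitoyltransferase. For Cxcl2 they were Cp (0.42), which encodes ceruloplasmin, the lymphocyte surface gene Cd52 (0.45) and the lymphocyte GTPase gene Gimap4 (0.49). For Cxcl1 they were Manf (0.30), Plaat3 (0.30) and Snx10 (0.31), and for Csf3r Tlr13 (0.22), Slc39a6 (0.26) and Galnt18 (0.26). Sprr2d was at 11.39 to 13.28 in irradiated knockouts and 10.02 to 14.21 in irradiated wild types, against 3.62 to 5.16 in unirradiated knockouts and 3.88 to 7.44 in unirradiated wild types. Cp had 10.07 to 10.59 in irradiated knockouts and 10.59 to 11.37 in irradiated wild types, against 6.55 in both unirradiated knockouts and 7.65 to 8.06 in unirradiated wild types, the same order of groups as Cxcl2. The likeness is a description over 10 arrays that share the irradiation split.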

How the data were processed

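Total RNA of 10 distal colorectum samples was measured on Affymetrix arrays, 1 per sample. The deposited values are log2 signals that the authors computed with MAS5, per the submitters' processing notes, with no version given there. The log2 scale was judged from the values: turned back to linear, every array had the same mean of 500 once 2% of values at either end were dropped. Values were used as deposited. Each gene was represented by the brightest of its probe sets with 1 annotated gene, and 12568 of 18193 genes were tested, those above the median of at least 2 arrays. Platform symbols were updated through a RefSeq table of GRCm38.p6. The number of arrays limits the precision.

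The test was limma 3.58.1 (R 4.3.3) on all 10 arrays, fitted with a mean for each group, 6 residual degrees of freedom, a variance trend and Benjamini-Hochberg adjustment over all genes tested at 0.05. The fit was tested on simulated data. The 3 Cxcl1 probe sets come from the same fit over 25883 probe sets. Named were every member, Pdgfc, and the 3 genes with an official-style symbol most like each member. Up to 4 genes per list and comparison with the smallest p among those past the threshold (or 2 where none passed) were also named. Some genes outside this rule, Il1b among them, were named after their values were seen. The members and lists were chosen with earlier results of these data known. Alternatives were quantile normalization, pseudocounts of 16 and 64, other filters, no trend, array weights, the mean or every probe set of a gene, a replicate block, only the groups compared, sex pattern as a covariate, male-pattern arrays only, and each array left out. Promoter letters were searched with Python 3.11.15.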

Additional observations from a re-analysis of the deposited data

How the results depend on the processing

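The number of member genes past the threshold kept to within 1.5 times its value under every alternative run, except for irradiation in wild type with sex pattern as a covariate, where it was 0 and not 4, and where 16 of all genes passed and 0 to 3 genes of each marker list other than the sex-linked one. In wild type, irradiation and sex pattern cannot be told apart, so that covariate rests on the 1 female-pattern array of irradiated knockout. The part of sex in the wild-type differences was not tested. Leaving out each array in turn gave 3 to 5 member genes for irradiation in knockout (3 without unirradiated knockout replicate 2, 5 without irradiated knockout replicate 2), 4 throughout in wild type, and 0 throughout for both genotype comparisons and the interaction. Array weights gave 5 in knockout, with Csf3r at 1.44 (adjusted p = 0.017, limma). With each group centred on its own mean, same-numbered arrays correlated at -0.18 to 0.16 over genes, and differently numbered ones at -0.25 to 0.24. In groups of 2 the centring makes the arrays mirror images, so these values do not settle whether the replicate numbers mark a block. With the replicate block the counts were 4 for irradiation in knockout, 4 in wild type and 0 for the genotype comparisons and the interaction. Among the Cxcl1 probe sets, the wild-type irradiation calls of 1419209_at and 1457644_s_at were lost with the replicate block (1.12 and 0.74, adjusted p = 0.11 and 0.10), the sex covariate (1.45 and 1.01, adjusted p = 0.40 and 0.41) and quantile normalization (1.03 and 0.67, adjusted p = 0.084 and 0.086), and each in 6 of 10 fits without 1 array (0.88 to 1.41 and 0.63 to 0.91 in those 6; 0.88 to 1.54 and 0.63 to 1.00 over all 10). For 1419209_at the genotype call without irradiation was lost with the replicate block (-2.01, adjusted p = 0.10) and the sex covariate (-2.01, adjusted p = 0.063), and for 1457644_s_at a call was gained with quantile normalization (-1.35, adjusted p = 0.049) and without irradiated wild-type replicate 3 (-1.26, adjusted p = 0.043).

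The count over all genes, to which the members' calls were compared, moved more. For irradiation in knockout it was 2957, against 1189 to 3596 without 1 array, 1706 with the sex covariate, 1352 on male-pattern arrays and 5148 over every probe set. For irradiation in wild type it was 3028, against 1323 to 3469 without 1 array, 1995 with the replicate block and 4870 over every probe set. For genotype after irradiation it was 0, and 0 to 3 without 1 array. For genotype without irradiation it was 154, against 41 to 255 without 1 array, 70 with the replicate block and 276 over every probe set. For the interaction it was 26, against 14 to 35 without 1 array, 3 with the replicate block, 4 with the sex covariate, 10 with no trend, 16 with a pseudocount of 64 and 49 over every probe set. Male-pattern arrays alone gave no value for irradiation in wild type, genotype after irradiation or the interaction, since irradiated wild type has no such array. With 2 or 3 arrays a group, and dim unirradiated signals for Ppbp, Cxcl2 and Csf3r, the sizes of their differences are the least certain values here.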
